A study of Mus musculus with 16 samples.

Results

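The cytosolic ribosomal protein genes of mouse spleen were followed through a course of imiquimod treatment in mice labelled PKR KO and in wild-type (WT) mice. Members were all gene symbols that begin with Rpl or Rps and a digit, plus Rplp0, Rplp1, Rplp2 and Rpsa, without pseudogene symbols and without the S6 kinases. The rule found 94 of 55291 symbols. Of these, 77 encode the canonical proteins of the ribosome, 46 of the large and 31 of the small subunit. Another 7 are paralogues (Rpl10l, Rpl22l1, Rpl36al, Rpl39l, Rpl3l, Rpl7l1 and Rps27l). A further 9 are predicted or retrotransposed copies (Rps4l, Rpl32l, Rpl37rt, Rpl6l, Rps12l1, Rps23rg1, Rps27rt, Rps3a2 and Rps3a3). Rps19bp1 encodes a protein that binds Rps19 and is no ribosomal protein.

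Suspended spleen cells of male C57BL/6 mice gave 16 libraries of total RNA from which ribosomal RNA had been removed. The 8 groups were PKR KO and WT mice on days 0, 1, 2 and 5, with 2 libraries each, and every library pooled 2 spleens. Imiquimod activates Toll-like receptor 7, and a daily dose of 62.5 mg of cream holding 5% of it was spread on the shaved back as a model of psoriasis. Day 0 mice had no cream, and no group had cream without the drug. Spleens were passed through a 70 µm mesh and red cells were lysed in all groups, and the age of the mice and the deleted part of the gene are not stated. Libraries held 35026754 to 67333830 fragments. Since the spread was measured between pools, p-values refer to the spread between libraries and not between single mice. Eif2ak2, which encodes PKR, a kinase that is activated by double-stranded RNA and slows translation, was at 12.2 and 14.9 CPM (fragment counts scaled to the size of the library) in KO and at 24.7 and 25.8 CPM in WT libraries on day 0. On day 2 it was at 48.0 and 22.2 CPM in KO and at 32.9 and 43.3 CPM in WT libraries, so that the genotypes overlapped on that day. They did not overlap on days 1 and 5, when KO was lower, but no difference passed the test on any day (adjusted p = 0.801, 0.11, 0.994 and 0.619 on days 0, 1, 2 and 5, edgeR). The genotypes are therefore named as labelled.

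A ribosome is built from 1 copy of nearly every ribosomal protein, and their genes are transcribed at matched, high rates in growing cells. The mRNAs of ribosomal proteins and of several translation factors start with a run of pyrimidines after a C, the terminal oligopyrimidine (TOP) motif, through which the mTORC1 pathway and Larp1 control their translation and stability. Lymphocytes that leave rest and begin to divide in the spleen raise the synthesis of ribosomes, including ribosomal RNA in the nucleolus and the factors that assemble the subunits.

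A few sequences are given because they bear on how far single genes can be told apart and on which starts carry TOP letters. The first pair is the coding sequence of Rps27 and of its paralogue Rps27l, which moved in opposite directions. They are taken from GENCODE release M21 on the GRCm38 build (mm10), with the 61 of 255 bases at which Rps27l differs in capitals.
Rps27 (chromosome 3): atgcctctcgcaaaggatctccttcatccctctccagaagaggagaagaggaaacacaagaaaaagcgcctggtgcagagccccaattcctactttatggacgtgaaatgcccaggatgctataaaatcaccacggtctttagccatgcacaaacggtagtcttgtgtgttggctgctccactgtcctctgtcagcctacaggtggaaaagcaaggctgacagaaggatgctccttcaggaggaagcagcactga
Rps27l (chromosome 9): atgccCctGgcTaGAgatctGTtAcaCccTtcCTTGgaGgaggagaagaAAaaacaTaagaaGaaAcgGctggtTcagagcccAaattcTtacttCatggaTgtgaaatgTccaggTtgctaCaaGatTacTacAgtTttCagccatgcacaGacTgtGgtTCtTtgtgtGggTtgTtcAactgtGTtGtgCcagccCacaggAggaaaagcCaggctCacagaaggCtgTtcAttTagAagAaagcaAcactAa
The identity of this pair was 76.1%, which leaves differences along the whole length. Rps27rt, an intronless copy on chromosome 9, was identical to Rps27 at all 255 bases (100%), so that fragments from the coding part of Rps27 and Rps27rt cannot be told apart. Rpl36a and Rpl36al were 87.9% identical over 321 bases, and Rpl39 and Rpl39l were 85.3% identical over 156 bases.

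The starts of a few members are shown next, as 15 bases before and 15 from the start annotated by RefSeq (GRCm38.p6), on the strand of the gene. Capitals mark a C followed by at least 4 pyrimidines that begins within 5 bases of the start, extended to the end of the run.
Rps27, chr3:90213634-90213663 (minus strand): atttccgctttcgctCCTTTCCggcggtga
Rps27l, chr9:66946071-66946100 (plus strand): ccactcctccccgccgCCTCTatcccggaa
Rps6, chr4:86857353-86857382 (minus strand): aagcggaagtcgggcCTCTTTTTCgtgacg
Rps2, chr17:24720048-24720077 (plus strand): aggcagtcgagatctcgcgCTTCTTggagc
Rpl7a, chr2:26910792-26910821 (plus strand): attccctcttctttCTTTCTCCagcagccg
Rpl22l1, chr3:28805493-28805522 (plus strand): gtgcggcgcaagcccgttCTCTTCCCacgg
Rpl36al, chr12:69184053-69184082 (minus strand): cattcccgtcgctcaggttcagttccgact
Of the canonical genes, 57 had a promoter in the RefSeq table. The TOP letters stood at the start in 25 of them (43.9%), against 23.2% of 69 mitochondrial ribosomal protein promoters and 20.2% of the 11356 promoters of tested genes. CCGGAA, on either strand within 250 bases before to 50 after the start, was found in 50.9% of the canonical, 58% of the mitochondrial ribosomal protein and 27.5% of the tested promoters. GGGCGG, on either strand, was found in 61.4%, 47.8% and 61.9%, and AAGATGG on the gene's strand in 7.02%, 13% and 4.39%. A match describes letters only, and a start annotated a few bases off hides a TOP motif.

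The canonical genes were among the most abundant transcripts of the spleen. On the length-corrected FPKM scale, their coding transcripts had a median of 442.1 FPKM over the 16 libraries (quartiles 330.2 and 644.1 FPKM), against a median of 2.668 FPKM over all 18789 genes tested. Rps29 (1433 FPKM), Rpl41 (1207 FPKM) and Rps18 (1117 FPKM) were the highest, and Rps15a (75.7 FPKM), Rps20 (77.5 FPKM) and Rpl22 (84.0 FPKM) the lowest. Part of this order follows the annotation, since the transcript of Rps15a with the most fragments is 5130 bases long. Among the paralogues, Rpl36al was within the range of the canonical genes, with a mean of 207.2 FPKM (97.6 to 648.8 FPKM by library). The others were lower: the means were 51.9 FPKM for Rpl22l1, 42.8 FPKM for Rps27l and 15.8 FPKM for Rpl7l1, and the striated muscle paralogue Rpl3l was at 0.251 FPKM. Of the male germ cell paralogues, Rpl39l was at 0.108 FPKM and Rpl10l had no fragment in any library. Rpl10l, Rpl39l (0 to 11 fragments per library) and Rps23rg1 (0 to 2) did not pass the filter on low counts and were not tested, which left 91 members. At least 1 near-identical stretch of 100 bases or more elsewhere in the annotation was found for 70 of the 77 canonical genes, with a median of 4 such copies and up to 34 for Rpl21. The transcript with the most fragments, used for the tests, was a retained-intron or other non-coding one in 21 of the 77, Rps27 and Rps13 among them; the coding transcript was run as an alternative.

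The summed level of the 77 genes was higher on day 1 than on day 0 in both genotypes and was lowest on day 5. The sum in KO spleens was 33422 and 31127 CPM (day 0), 39618 and 39420 CPM (day 1), 35765 and 31062 CPM (day 2), and 24988 and 25102 CPM (day 5). The sum in WT spleens was 33849 and 26910 CPM (day 0), 41123 and 45650 CPM (day 1), 36463 and 36536 CPM (day 2), and 26276 and 27805 CPM (day 5). On day 1 both libraries lay above both of day 0 in either genotype. On day 5 both KO libraries lay below both of KO day 0, whereas the WT libraries of day 5 and day 0 overlapped, because WT day 0 replicate 2 was low. That library stood apart within its group across the family: its median deviation from each gene's mean over all libraries was -0.26 on the log2 scale, against 0.06 in replicate 1. With 2 libraries a group the exact permutation test cannot go below p = 0.33 for a pair of days, so no p is given for these sums. In bulk RNA of this kind, fewer cells of a type and less RNA per cell cannot be told apart.

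**Figure D1:**
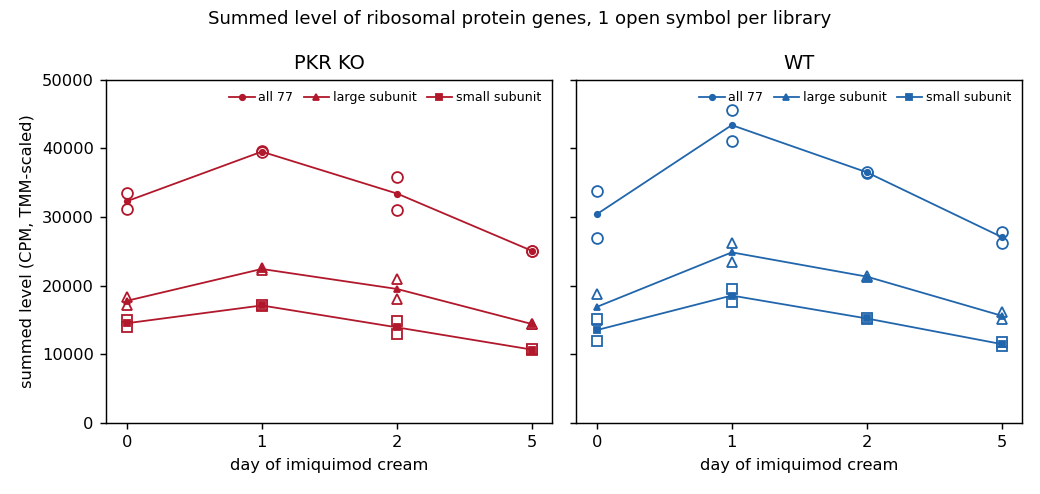
Summed level of the canonical ribosomal protein genes (all 77, the 46 of the large and the 31 of the small subunit; CPM, y axis) by day of treatment (x axis), KO in the left and WT in the right panel. Open symbols are the 2 libraries of a group and lines join the group means; day 1 is the highest point of every curve, and day 5 the lowest.

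On day 1 the family rose. In KO spleens 34 of the 77 canonical genes rose and 1 fell (background 22.1% of 18789 genes higher and 19.5% lower), with a median log2 change from day 0 of 0.28 and quartiles of 0.06 and 0.48. In WT spleens 60 rose and none fell (edgeR; none fell at an unadjusted p under 0.05 or with DESeq2 either; background 23.3% higher and 21.4% lower), with a median of 0.51 and quartiles of 0.37 and 0.68. The median over all genes tested was -0.00 in KO and -0.04 in WT. Of the genes that rose, 31 did so in both genotypes, which is 31 of the 34 in KO and 31 of the 60 in WT. The count of 60 depends on the low day 0 library: without WT day 0 replicate 2, 40 of the 91 members rose in WT, against 69 with it. In KO the count over all members was 41, and it was 22, 23 and 24 without KO day 0 replicate 2, KO day 1 replicate 1 and KO day 1 replicate 2.

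Rps2, a small-subunit protein at the mRNA entry, had one of the largest rises on day 1. It was at 864 and 789 CPM on day 1 and at 429 and 340 CPM on day 0 in KO spleens, a log2 change of 1.10 ± 0.18 (SE, n = 2 libraries a group; adjusted p = 0.000114, edgeR quasi-likelihood test). In WT spleens it was at 807 and 850 CPM on day 1 and at 520 and 333 CPM on day 0 (0.96 ± 0.18, adjusted p = 0.000405, edgeR). The days did not overlap in either genotype. Rpl41, the smallest ribosomal protein, rose by 1.01 in KO and 0.95 in WT on the log2 scale. Rpl7a of the large subunit rose by 0.81 in KO and 1.04 in WT. Of the genes of the ribosomal stalk, which recruits the elongation factors, Rplp0 rose (0.65 in KO, 0.61 in WT), Rplp1 passed the threshold in WT (0.40, adjusted p = 0.0432, edgeR) but not in KO (0.19, adjusted p = 0.363), and Rplp2 passed it in neither (0.27 and 0.33). Rpsa, which is also known as a laminin receptor, rose by 0.53 in both genotypes, and Rps6, the substrate of the S6 kinases, by 0.45 in KO and 0.63 in WT. Rps19 and Rps14, whose loss impairs red cell formation in humans, changed less: Rps19 rose in WT (0.37), and Rps14 passed in neither genotype (0.39 in KO, 0.32 in WT).

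Several genes passed the threshold on day 1 in WT alone. Rps25, a small-subunit protein needed for translation from some viral internal entry sites, was at 381 and 402 CPM on day 1 and at 360 and 397 CPM on day 0 in KO spleens (0.05 ± 0.13). In WT spleens it was at 432 and 491 CPM on day 1 and at 334 and 279 CPM on day 0 (0.59 ± 0.13, adjusted p = 0.00113, edgeR). The days overlapped in KO and were apart in WT. Rpl22, an RNA-binding protein needed for the development of mouse αβ T cells, showed 0.04 in KO and rose by 0.60 in WT, and Rps27a, which is made as a fusion with ubiquitin, showed 0.22 in KO and rose by 0.70 in WT. Rpl5, which together with Rpl11 binds and restrains Mdm2, showed 0.05 in KO and rose by 0.51 in WT. Rpl11 rose in both (0.32 and 0.52), as did Rpl38, which is needed for patterning of the mouse skeleton (0.39 and 0.67). None of these differences between genotypes passed its own test, as given below.

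On day 2 fewer genes were called higher. In KO spleens 13 canonical genes were higher and 15 lower than on day 0 (background 26.2% and 23%, both above the share of the family), with a median log2 change of 0.06. In WT spleens 28 were higher and 2 lower (background 23.9% and 21.3%), with a median of 0.23. Among those higher, 13 were shared, all 13 of the KO calls and 13 of the 28 WT calls. Rpl41 stayed high (0.97 in KO, 1.07 in WT), as did Rps2 (0.88 and 0.95), Rplp0 (0.54 and 0.71) and Rpl10, a protein placed late in the maturation of the large subunit (0.57 and 0.81). Rps29 fell in KO by 0.74, and in WT its change of -0.29 did not pass (adjusted p = 0.201, edgeR). Rps13 (-0.70 in KO, -0.28 in WT) and Rpl39, which lines the exit tunnel (-0.69 in KO, -0.27 in WT), likewise passed in KO alone. These counts rest on single libraries: without KO day 2 replicate 1 the median in KO was -0.14 and 9 of the 91 members were higher, against 19 with it, and without KO day 2 replicate 2 11 members were lower, against 19 with it. Without WT day 0 replicate 2, 16 members were higher in WT on day 2, against 34 with it.

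On day 5 most canonical genes that changed were below day 0. In KO spleens 44 fell and 2 rose (background 20.3% lower and 24.2% higher), with a median log2 change of -0.38 and quartiles of -0.64 and -0.17. In WT spleens 21 fell and 2 rose (background 17% lower and 22.4% higher), with a median of -0.17 and quartiles of -0.37 and 0.02. The WT median over the 91 members was -0.16, and it was 0.04 without WT day 0 replicate 1 and -0.29 without replicate 2. It was -0.02 over the 13 members without near-identical copies, of which 7 were canonical. Of those that fell, 20 did so in both genotypes, which is 20 of the 44 in KO and 20 of the 21 in WT. In WT the count moved with single libraries: 24 of the 91 members fell, and 12 without either WT day 0 replicate 1 or WT day 5 replicate 1.

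Rps20, a protein of the small-subunit head, had one of the largest falls on day 5. It was at 147 and 165 CPM on day 5 and at 344 and 319 CPM on day 0 in KO spleens (-1.09 ± 0.12, adjusted p = 6.66e-07, edgeR). In WT spleens it was at 181 and 183 CPM on day 5 and at 297 and 282 CPM on day 0 (-0.67 ± 0.12, adjusted p = 0.000191, edgeR). All libraries of day 5 lay below those of day 0. Rps13 (-1.10 in KO, -0.66 in WT), Rpl39 (-1.09 and -0.67) and Rps29 (-0.97 and -0.65) fell in both genotypes. Rps4x (-0.81 and -0.45) and Rplp1 (-0.64 and -0.58) did so too. The 2 called higher were Rps26 (0.44) and Rpl29 (0.42) in KO, and Rps12 (0.48) and Rpl7a (0.37) in WT. The WT value of Rpl7a was 0.17 without WT day 0 replicate 2 and 0.62 without replicate 1. Counts on near-identical copies came to 69.1% of the gene's own count for Rps12, 45.5% for Rpl29 and 32.7% for Rpl7a, and to over 10% for 21 canonical genes, so that values of these genes are uncertain.

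**Figure D2:**
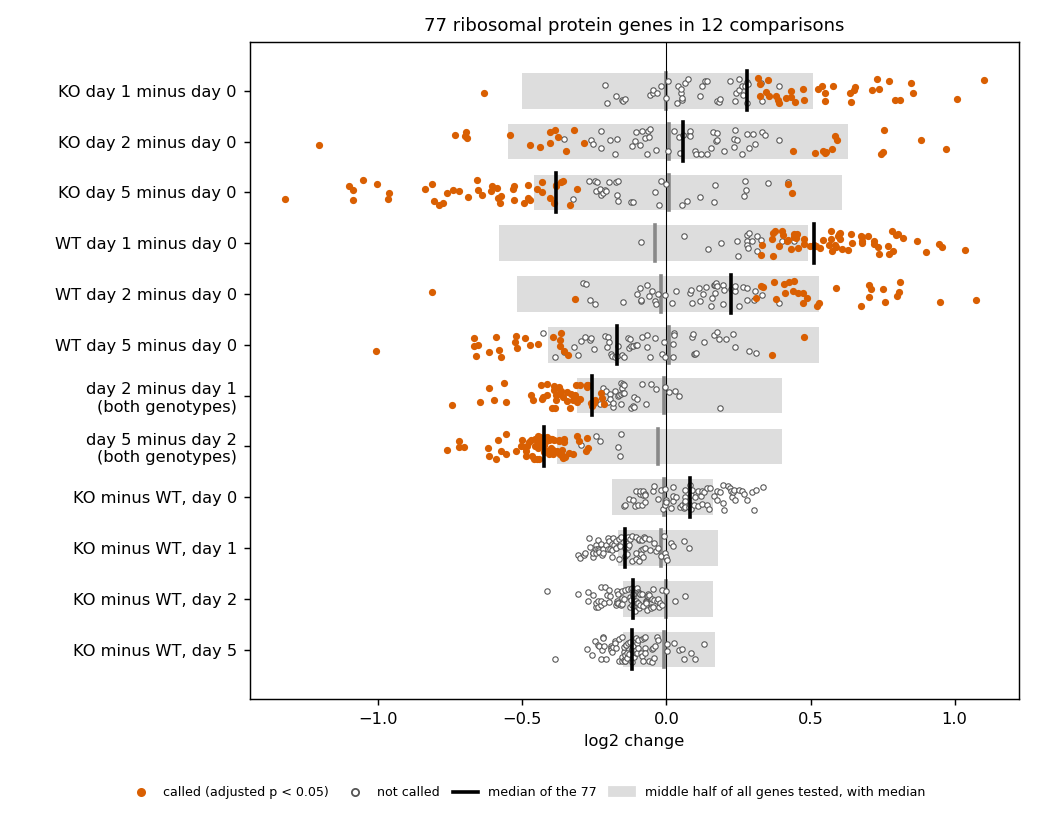
Log2 change (x axis) of the 77 canonical genes in 12 comparisons (rows): each treated day minus day 0 in KO and in WT, the steps between treated days, and KO minus WT on each day. Points are genes, orange where called; black bars are medians (0.28, 0.06 and -0.38 in KO and 0.51, 0.23 and -0.17 in WT on days 1, 2 and 5), and grey boxes span the quartiles of all genes tested.

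The steps between treated days were tested on the mean of both genotypes. From day 1 to day 2, 44 of the 77 genes fell and none rose (background 20.5% lower and 21.9% higher), and 73 had a log2 change below 0, with a median of -0.26. By edgeR no gene was higher at an unadjusted p under 0.05, and DESeq2 called none higher (1 at an unadjusted p). From day 2 to day 5, 71 fell and none rose (edgeR; none was higher at an unadjusted p under 0.05 or with DESeq2; background 22.9% lower and 22.8% higher), and all 77 were below 0, with a median of -0.42. Rpl10 (-0.76), Rps20 (-0.72) and Rpl41 (-0.70) fell furthest in this step. Rps29 (-0.74), Rps27 (-0.65) and Rpl39 (-0.61) fell furthest in the step before. The days ranked in much the same way across the family. In KO 62 of the 77 genes had their highest group mean on day 1 and 65 their lowest on day 5, and in WT 70 and 57. Day 0 held the highest mean of 12 genes in KO and of 1 in WT.

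**Figure D3:**
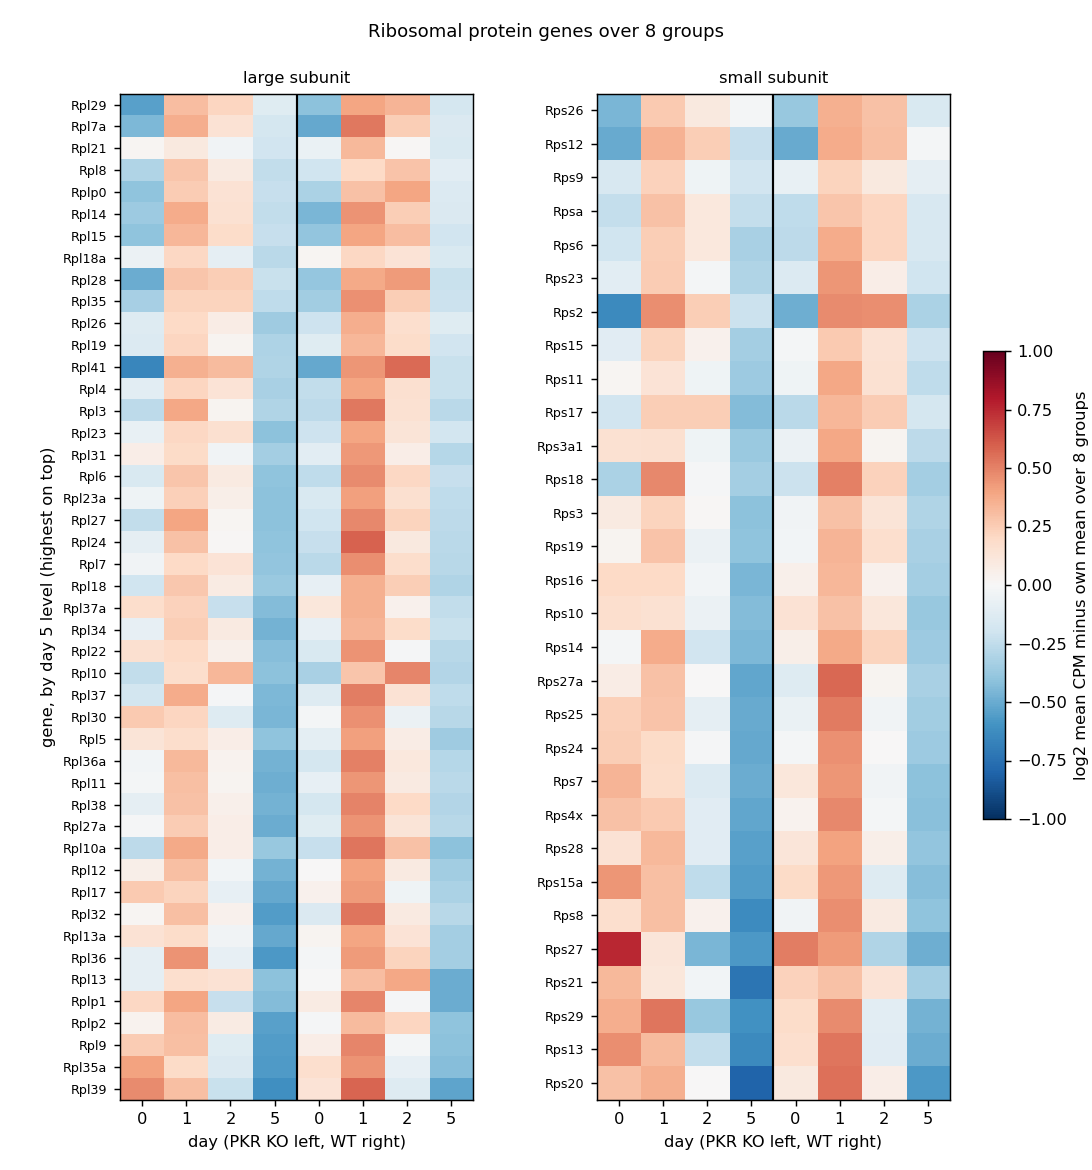
Mean level of the canonical genes (rows, 1 of the 77 not drawn, ordered by the day 5 level) in the 8 groups (columns, KO left of WT) relative to its own mean over the groups (log2 scale, colour), with large-subunit genes in the left panel and small-subunit genes in the right. Over all 77, day 1 is the highest day for 62 genes in KO and 70 in WT; Rps27 is highest on day 0 in both genotypes, as are 11 other genes in KO and none in WT.

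The subunits are given apart, against the background shares stated above for each day. On day 1, 24 of 46 large-subunit and 10 of 31 small-subunit genes rose in KO (medians 0.32 and 0.17), and 39 and 21 rose in WT (medians 0.57 and 0.44). On day 5, 24 large-subunit and 20 small-subunit genes fell in KO (medians -0.33 and -0.53), and 8 and 13 fell in WT (medians -0.12 and -0.30). The 8 of 46 large-subunit genes in WT are close to the background of 17%. The difference between subunits was not tested. Genes with the TOP letters at the start had medians close to those without on day 1 (0.35 for 25 genes and 0.27 for 32 in KO, 0.54 and 0.53 in WT). On day 5 the medians were -0.20 with and -0.44 without these letters in KO, and -0.13 and -0.19 in WT.

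The summed levels of marker genes of several cell types changed over the same days. Summed over 4 erythroid markers (Alas2, Slc4a1, Ank1 and Hbb-bt), levels were at 4689 to 6102 CPM in KO and 2406 to 3294 CPM in WT on day 5, against 246.2 to 375.9 CPM in KO and 124.2 to 335.6 CPM in WT on day 0. Plasma cell markers (Jchain, Xbp1, Sdc1, Mzb1 and Derl3) were at 1347 to 2436 CPM in KO and 1556 to 2107 CPM in WT on day 2, against 176.3 to 224.9 CPM over both genotypes on day 0. T cell markers (Cd3d, Cd3e, Cd3g, Cd4 and Cd8a) were at 22.7 to 49.5 CPM in KO and 35.3 to 42.1 CPM in WT on day 2, against 193.5 to 230.5 CPM over both genotypes on day 0. B cell markers were at 829.9 to 962.8 CPM in KO and 879.3 to 1058 CPM in WT on day 5, against 1480 to 1484 CPM in KO and 1338 to 1593 CPM in WT on day 0, without overlap. All of these markers were detected. The part of these shifts in the levels of the ribosomal protein genes was not tested.

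Rps27 encodes a zinc-finger protein of the small subunit, and unlike most of the family it was not called higher on any day. Its level was below day 0 from day 1 on in KO and from day 2 on in WT. KO spleens had 592.5 and 614.1 CPM (day 0), 381.2 and 396.7 CPM (day 1), 274.4 and 248.1 CPM (day 2), and 217.3 and 264.2 CPM (day 5). WT spleens had 591.6 and 431.5 CPM (day 0), 485.2 and 476.5 CPM (day 1), 287.2 and 295.3 CPM (day 2), and 258.6 and 250.3 CPM (day 5). In KO each treated day lay wholly below day 0, and in WT day 1 lay between the libraries of day 0. The log2 changes in KO were -0.63 ± 0.14, -1.21 ± 0.14 and -1.33 ± 0.14 on days 1, 2 and 5 (adjusted p = 0.00134, 1.37e-06 and 5.72e-07, edgeR). In WT the change was -0.09 ± 0.14 on day 1 (adjusted p = 0.625, edgeR), then -0.81 and -1.01. It was the only canonical gene called lower on day 1 in KO. Its identical copy Rps27rt was at 5.48% to 7.52% of the FPKM of the tested Rps27 transcript in every library. Rps27rt followed Rps27 with -0.71, -0.96 and -1.40 in KO and 0.01, -0.65 and -0.88 in WT, and its counts may come from Rps27.

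Rps27l, the paralogue that is a target of p53 in human cells, was above its day 0 level on every treated day. Its level in KO spleens was 10.8 and 12.1 CPM (day 0), 24.4 and 26.1 CPM (day 1), 42.3 and 31.0 CPM (day 2), and 26.7 and 20.3 CPM (day 5). Its level in WT spleens was 11.8 and 9.36 CPM (day 0), 30.1 and 29.7 CPM (day 1), 31.8 and 32.7 CPM (day 2), and 20.6 and 31.2 CPM (day 5). Every library of a treated day lay above every library of day 0. The log2 changes were 1.14 ± 0.19, 1.68 ± 0.20 and 1.04 ± 0.20 in KO and 1.50 ± 0.19, 1.61 ± 0.20 and 1.30 ± 0.19 in WT on days 1, 2 and 5, with adjusted p of 0.000448 or less (edgeR). Shares per length are on the transcripts used for the tests, which for Rps27 was not a coding one. Rps27l was at 1.45% and 1.58% of Rps27 on day 0 in KO and 1.59% and 1.73% in WT. On day 2 it was at 12.3% and 9.95% in KO and 8.83% and 8.82% in WT. The share of the paralogue was thus still small where it was highest. Each of these calls held in all 28 alternatives, the coding transcript of Rps27 and the fits without 1 library among them.

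**Figure D4:**
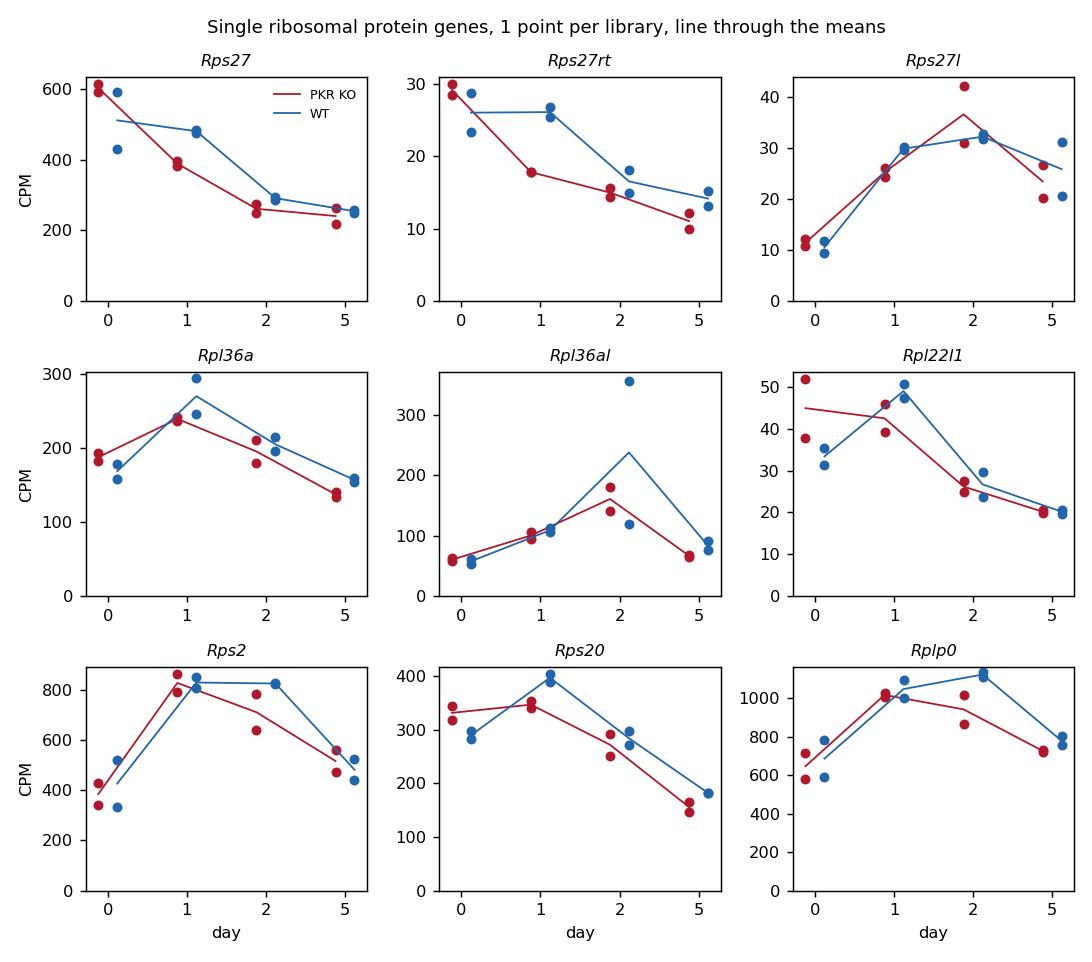
CPM (y axis, a scale of its own in each panel) by day (x axis) for Rps27, its copy Rps27rt, its paralogue Rps27l, Rpl36a and Rpl36al, Rpl22l1, Rps2, Rps20 and Rplp0, KO in red and WT in blue. Points are libraries and lines join group means. Rps27 is below and Rps27l above its day 0 level on days 2 and 5 in both genotypes. From day 2 to day 5 the means of both genes fall. On day 2, 1 WT library stands at 356 for Rpl36al.

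Rpl22l1, whose level is raised in mice that lack Rpl22, was called lower on day 5 in both genotypes. It was at 19.7 and 20.6 CPM on day 5 and at 37.9 and 52.0 CPM on day 0 in KO spleens (-1.16 ± 0.15, adjusted p = 5.52e-06, edgeR). In WT it was at 19.7 and 20.6 CPM on day 5 and at 35.4 and 31.4 CPM on day 0 (-0.73 ± 0.15, adjusted p = 0.000746, edgeR). Day 5 lay below day 0 in both genotypes. Rpl22 fell by 0.58 on the log2 scale in KO and showed -0.13 in WT (adjusted p = 0.408, edgeR) on that day. Rpl36al was at 140.2 and 181.2 CPM on day 2 and at 62.1 and 58.0 CPM on day 0 in KO, and at 356 and 119.7 CPM on day 2 and at 61.5 and 53.2 CPM on day 0 in WT. Its log2 change on day 2 was 1.42 ± 0.39 in KO and 2.05 ± 0.40 in WT (adjusted p = 0.0143 and 0.00248, edgeR), and the WT value was 1.06 without replicate 1 and 2.64 without replicate 2 of WT day 2. Its locus overlaps the predicted gene Gm49383, so that the counts may be shared, whereas Rpl36a was 0.06 and 0.28 on that day. Rpl7l1 rose on day 1 (0.41 in KO, 0.75 in WT), and Rpl7 rose in WT (0.74) and showed 0.24 in KO.

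Rpl3l, the paralogue of striated muscle, rose on day 5 from a very low level. It was at 0.443 and 0.579 CPM on day 5 and at 0.227 and 0.126 CPM on day 0 in KO (log2 change 1.48 ± 0.53, adjusted p = 0.0284, edgeR), and at 0.963 and 0.537 CPM on day 5 and at 0.219 and 0.154 CPM on day 0 in WT (2.02 ± 0.48, adjusted p = 0.00279, edgeR). The days did not overlap. Summed striated muscle markers (Ckm, Acta1, Myh6 and Tnnt3) lay between 0.326 and 1.11 CPM over all libraries, with Myh6 at 0, and their part in the level of Rpl3l was not tested. Of the copies, Rps4l rose in KO (1.19, 1.08 and 0.93 on days 1, 2 and 5) and Rpl32l fell (-0.78, -1.08 and -1.76); both were under 4 CPM. In WT, Rps4l rose on days 1 and 2 (0.66 and 0.85) and showed 0.05 on day 5, and Rpl32l passed on no day (0.20, -0.48 and -0.71). Rps19bp1 rose on day 1 (0.85 in KO, 1.03 in WT) and was higher on day 2 (0.56 and 0.69).

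The lists of genes that act with the ribosomal proteins in building ribosomes had larger medians on day 1. These lists were chosen with results of these data known. Of 13 RNA polymerase I and nucleolar genes, 12 rose in KO on day 1 (median 0.96) and 11 in WT (0.87), 7 and 6 were higher on day 2, and 5 and 7 on day 5. The background of genes called higher in KO was 22.1% (day 1), 26.2% (day 2) and 24.2% (day 5). In WT it was 23.3% (day 1), 23.9% (day 2) and 22.4% (day 5). Nolc1 rose by 1.64 in KO and 1.79 in WT on day 1, Ncl by 1.42 and 1.48, and Fbl, which methylates ribosomal RNA, by 1.44 and 1.32. Of 12 chaperones and subunit assembly factors, 12 rose in KO (0.77) and 11 in WT (0.89) on day 1, among them Grwd1, a chaperone of Rpl3 (1.45 and 1.22). On day 5, 2 in KO and 4 in WT were higher than on day 0, with medians of 0.06 and 0.23, shares not far from the background.

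Of the 78 mitochondrial ribosomal protein genes, 65 rose in KO and 68 in WT on day 1 (medians 0.65 and 0.81). On day 5, 31 were higher and 4 lower in KO (median 0.22), and 32 higher and 1 lower in WT (0.31), on the day when the cytosolic genes were mostly lower. Of 16 other TOP mRNAs, 12 rose and 1 fell in KO and 13 rose in WT on day 1 (medians 0.52 and 0.70). Npm1 rose by 1.48 in KO and 1.78 in WT, and Tpt1 fell on days 1, 2 and 5 in KO (-0.43, -0.49 and -0.86) and on days 2 and 5 in WT (-0.41 and -0.75). Of 12 genes of the mTORC1 pathway and of TOP mRNA control, 4 rose in KO, and 3 rose and 3 fell in WT on day 1, shares close to the background of that day (22.1% higher in KO, 23.3% higher and 21.4% lower in WT). Larp1, which binds TOP mRNAs, rose by 1.25 in KO and 0.78 in WT, and Eif4ebp1 by 1.45 and 1.04. In WT, Eif4ebp2 (-0.92), Rptor (-0.33) and Tsc1 (-0.29) fell.

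**Figure D5:**
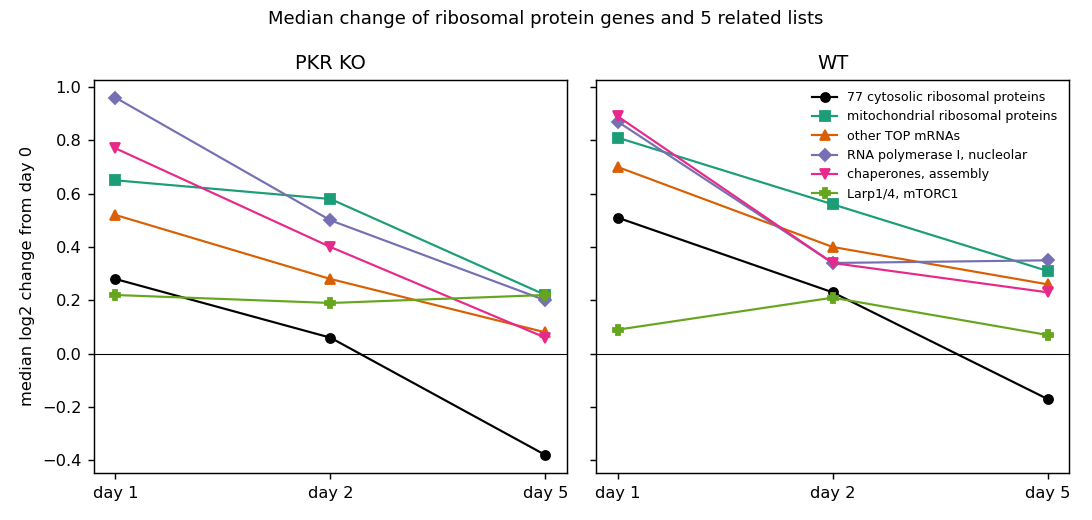
Median log2 change from day 0 on days 1, 2 and 5 (x axis) of the canonical ribosomal protein genes and of the lists of mitochondrial ribosomal proteins, other TOP mRNAs, assembly factors, polymerase I and nucleolar genes, and mTORC1 genes, KO left of WT. On day 5 the median of the canonical genes is below 0 (-0.38 in KO, -0.17 in WT), and those of the other lists are above it.

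No ribosomal protein gene differed between the genotypes by the test. The KO minus WT median log2 value over the 77 genes was 0.08, -0.14, -0.12 and -0.12 on days 0, 1, 2 and 5. Over all genes tested it was -0.01, -0.02, 0.00 and -0.01. Lower in KO were 24, 72, 75 and 68 of the 77 genes, which share libraries and are not independent. The edgeR test called 0 of 77 higher and 0 lower on each day, against a background of 0.0106% higher and 0.00532% lower (day 0), 0.128% higher and 0.0479% lower (day 1), 0% in either direction (day 2), and 0% higher and 0.00532% lower (day 5). At an unadjusted p under 0.05, 7 were higher on day 0, and 6, 1 and 2 were lower on days 1, 2 and 5. Of the 18789 genes tested, 1105, 1751, 868 and 1229 passed that p in either direction on days 0, 1, 2 and 5. DESeq2 called 0 of the 77 on every day. The difference in the change from day 0 (KO minus WT) had medians of -0.22, -0.21 and -0.23 on days 1, 2 and 5. Over the 91 members and all alternatives these medians lay between -0.40 and -0.05, between -0.35 and -0.05, and between -0.38 and -0.09. None of the 77 was called (background 0.128% higher and 0.0319% lower on day 1, 0% on days 2 and 5), and DESeq2 called 0. At an unadjusted p under 0.05, 21, 3 and 13 of the 77 were lower on days 1, 2 and 5. Of the 18789 genes tested, 2490, 752 and 1477 passed that p in either direction on those days. The sum over the 77 genes was lower in KO on 3 of the 4 days, by 0.069 on the log2 scale over the days (exact permutation of genotype within days, two-sided, 1296 splits, p = 0.241). On the log2 scale the difference was -0.146 scaled to library totals alone (exact permutation p = 0.0833) and -0.040 as a share of the summed counts (exact permutation p = 0.31).

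The smallest p of a member on day 1 was that of Rps27rt, at 17.8 and 17.8 CPM in KO and at 26.8 and 25.3 CPM in WT (-0.55 ± 0.14, adjusted p = 0.125, edgeR). With DESeq2 it passed (adjusted p = 0.0433), and it was the only member of the 91 to do so there. The deviations of the 2 day 0 libraries of WT from each other, given above, enter each difference in change, since all 3 share day 0. Across the 77 genes the KO minus WT value also went with base composition. The Pearson correlation with the GC content of the transcript was -0.62, 0.47, -0.54 and 0.32 for days 0, 1, 2 and 5. Over 18556 tested genes it was -0.23, 0.01, -0.15 and 0.05. The Spearman correlation was -0.62, 0.47, -0.56 and 0.31 for the 77 genes. Over the tested genes it was -0.39, 0.11, -0.27 and 0.06, with the same sign on each day. These are descriptions across genes that share libraries and are not independent. The GC content ranged from 39.1% to 60.8% over the 77 genes, and its part in the differences between genotypes was not tested.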

How the data were processed

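Per the labels, stranded total RNA libraries depleted of ribosomal RNA were sequenced from spleen cells in 8 groups of 2 libraries. The submitters' processing notes name HISAT2, TopHat, Trimmomatic and bcl2fastq 2.17.1.14, with mm10 as the build; which program counted, and on which annotation, is not given in the sources used here. Per the file headers, fragment counts were listed 1 per transcript. Their sums were 1.48 to 2.12 times the library total, so that some fragments were counted more than once. Whether these were shared by overlapping isoforms, by near-identical copies or by both is not stated and was not tested. FPM is the count over the library total and FPKM is FPM per kilobase of transcript, both as deposited by the authors.

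For each of 55291 symbols the transcript with the highest mean count was kept; for members this was a coding one in 64 of 94. CPM are counts over library totals times TMM factors. Genes passing filterByExpr (18789) were tested with the robust quasi-likelihood F test of edgeR 4.0.16 (R 4.3.3), two-sided, with a mean for each group and 8 degrees of freedom left for the spread, adjusted by Benjamini-Hochberg over all genes in each of 15 comparisons and called at adjusted p under 0.05. The SE is the log2 change over the square root of F. The test was tested on simulated data. Counts were drawn around the mean rate of each gene over all libraries, with the same spread for all genes and few genes changed. For WT day 1 against day 0 the test called 79.6% of genes changed by 1 on the log2 scale and 8% of those changed by 0.5. It called 0.0169% of unchanged ones. In the data 23.3% of genes were called higher and 21.4% lower in that comparison, which makes the threshold less strict. The simulated shares therefore do not give the sensitivity for these day comparisons. In the simulation the test called 36.7% of genes whose change differed between genotypes by 1 on the log2 scale, and 0% of those with 0.5. Alternatives were DESeq2 1.42.0, its size factors, limma-trend 3.58.1 on log2(FPKM + 0.5) and log2(FPKM + 0.1), library totals alone, other filters and transcripts, and leaving out each library. Near-identical copies were stretches of 100 bases or more at 97% identity or more (BLAST 2.17.0).

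The members and gene lists were chosen with earlier results of these data known. Named genes were the 3 largest rises and falls called in each comparison over days, called members between genotypes, a fixed panel with the paralogue pairs, and the highest and lowest by FPKM; others were named after their values were seen. Some items of the lists are not reported here. Fold changes of day comparisons within a genotype share the day 0 libraries.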

Additional observations from a re-analysis of the deposited data

How the results depend on the processing

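No called value changed sign under any alternative run. Of 419 named gene values, recomputed 11896 times, 11451 kept their side of the threshold, 341 lost and 104 gained a call. All counts here are of the 91 members. With library totals alone, which move the median of all genes by 0.22 on WT day 1 and by -0.25 from day 1 to day 2, the higher counts were 22 (WT day 2), 3 (WT day 5) and 3 (KO day 5), and the step to day 2 had 0 higher and 81 lower; of all genes called on WT day 1, 73.3% were then higher, against 52.1%. limma-trend, with either pseudocount, gave 17 higher on WT day 2, 3 higher and 14 lower on WT day 5, 3 higher on KO day 5, and 0 higher and 78 lower from day 1 to day 2. The compared groups alone gave 22 higher on WT day 2 and 11 lower on KO day 2. A filter on FPKM of 2 gave 5 lower on WT day 2, 3 higher from day 1 to day 2 and 0 higher from day 2 to day 5. Summing members with their copies, an alternative chosen after seeing the data, gave 5 lower on WT day 2 and 3 higher on WT day 5, and protein-coding transcripts gave 3 higher on WT day 5. Among the 13 members without near-identical copies, counts were fewer by construction. Of the 13, 7 were canonical, and the others were Rpl3l, Rpl7l1, Rpl32l, Rps4l, Rps19bp1 and Rps27l. KO had 7 higher and 1 lower on day 1, and 4 higher and 1 lower on day 2. On day 5, KO had 3 higher (Rps27l, Rps4l and Rpl3l) and 6 lower. WT had 10 higher on day 1, and 5 higher and 0 lower on day 2. On day 5, WT had 2 higher (Rps27l and Rpl3l) and 1 lower. No canonical gene was among those higher on day 5. The steps had 0 higher and 7 lower, then 11 lower. The background shares are those given above for each comparison. Between genotypes on day 1, 1 member (Rps27rt) was lower with no filter, library totals alone, the compared groups alone or DESeq2, and without a filter 3 members (Rpl22l1, Rpl39 and Rps27rt) had a lower day 1 change in KO. The cause of these shifts was not tested.

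Leaving out 1 library at a time, KO had 22 to 45 higher and 2 to 3 lower on day 1, 9 to 26 higher and 11 to 22 lower on day 2, and 1 to 7 higher and 34 to 52 lower on day 5. WT had 40 to 77 higher and 0 lower on day 1, 16 to 47 higher and 2 to 6 lower on day 2, and 2 to 12 higher and 12 to 34 lower on day 5. The step from day 1 to day 2 had 0 to 2 higher and 32 to 64 lower, the lowest without KO day 2 replicate 2 (33 without WT day 2 replicate 1), and the step to day 5 had 1 higher and 73 to 83 lower. Between genotypes, 0 to 1 members were lower on day 1 (Rps27rt without WT day 0 replicate 1) and on day 2 (Rpl36al without WT day 2 replicate 2), and 0 to 3 in the day 1 change (Rpl31, Rps27 and Rps27rt without WT day 0 replicate 1). A fit that leaves 1 library in a group assumes that it varies like the others.

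Replicate numbers did not pair libraries: over 28 pairs of groups, the correlation of their deviations lay between -0.161 and 0.205. With the replicate block, 39 members were higher on KO day 1 and 70 on WT day 1, and 49 were lower on KO day 5 and 22 on WT day 5; no count moved by over 1.5 times. Depth did not limit the canonical genes, but Rpl3l, Rps4l, Rpl32l and the untested members had few fragments.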
